A study of Mus musculus with 12 samples.

Results

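The 9 libraries of granulosa cell exosomes that had received ferric citrate were compared with the 3 libraries that had not, whatever else had been added to the medium. The rule for members used the treatment labels alone, with no measured value, and all 12 libraries of the series entered. The comparison itself was chosen with earlier results of these data known. Mouse granulosa cells, the hormone-producing cells that surround the oocyte, were obtained by the study from ovaries of Kunming mice primed with gonadotropin. They were kept for 24 h in DMEM/F12 free of exosomes and then cultured for 48 h, and small RNA of the exosomes pelleted from the medium was sequenced. The CON group (n = 3) received no addition. In the FAC group (n = 3) the medium held 100 μM ferric citrate, an iron salt. The DFO group (n = 3) received 100 μM ferric citrate together with 100 μM deferoxamine mesylate, an iron chelator. The VE group (n = 3) received 100 μM ferric citrate together with 200 μM VITE, a lipid-soluble antioxidant. The comparison asks which exosomal miRNAs differed with ferric citrate when a chelator or an antioxidant was present as well as when it was not. No group received the chelator or the antioxidant without ferric citrate. The labels do not say whether the 3 libraries of a group came from separate cultures or animals, so p-values measure only the spread between these libraries.

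miRNAs are short RNAs that pair with mRNAs, mainly through the seed at bases 2 to 8, and lower the stability and translation of those mRNAs. Cells release part of their miRNAs in exosomes, small membrane vesicles that other cells can take up, and granulosa cells and the oocyte exchange such vesicles in the follicle. miRNAs that share a seed form a family with overlapping targets, and miRNAs made from neighbouring hairpins are often transcribed together.

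The files list 637 miRNA entries per library, of which 547 had at least 10 counts over the 12 libraries and were tested. Values are given on a pair of scales. CPM relates the count of an entry to all miRNA counts of its library, adjusted by TMM factors, and so compares it with the other miRNAs. RPM, the deposited normalized value, relates the count to a larger library total. Which reads make up that total is not stated, and they are called library reads here. The sequences below are mature miRNAs from RefSeq (GRCm38.p6), with the seed in capitals. The first lines hold families in which several members lay higher in RPM in the ferric citrate libraries.

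let-7a-5p: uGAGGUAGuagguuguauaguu
let-7b-5p: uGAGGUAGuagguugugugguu
let-7c-5p: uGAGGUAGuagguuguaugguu
let-7d-5p: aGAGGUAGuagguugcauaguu
let-7f-5p: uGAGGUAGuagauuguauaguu
miR-99a-5p: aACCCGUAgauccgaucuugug
miR-99b-5p: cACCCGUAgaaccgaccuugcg
miR-10a-5p: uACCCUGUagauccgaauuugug
miR-10b-5p: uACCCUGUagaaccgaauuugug
miR-125a-5p: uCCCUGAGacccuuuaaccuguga
miR-125b-5p: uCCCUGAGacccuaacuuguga

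The next lines hold the miRNAs that separated the 9 libraries from the 3 CON libraries in CPM, miR-344d-3p, which does so without the TMM factors, and miR-25-3p and miR-363-3p, which share a seed and were called in opposite directions on different scales.

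miR-146a-5p: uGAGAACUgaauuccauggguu
miR-222-3p: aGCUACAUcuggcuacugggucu
miR-1199-5p: uCUGAGUCccggucgcgcgg
miR-149-5p: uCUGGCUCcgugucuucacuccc
miR-344d-3p: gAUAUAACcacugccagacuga
miR-25-3p: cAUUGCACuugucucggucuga
miR-363-3p: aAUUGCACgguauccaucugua

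The last lines hold 3 of the miRNAs called lower in CPM, each counted almost wholly in 1 CON library.

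miR-5110: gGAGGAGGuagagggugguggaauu
miR-6929-3p: cAGGUGCUgucuucuucuuccag
miR-1188-5p: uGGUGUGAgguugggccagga

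miRNA counts made up a larger part of every ferric citrate library than of any CON library. The share was 4.998%, 1.997% and 2.83% of the library total in CON replicates 1 to 3, and it lay between 5.53% and 30.4% in the 9 ferric citrate libraries, with a median of 14.6%. The groups did not overlap, although DFO replicate 3, the lowest, lay close to CON replicate 1. The mean was 3.28% ± 1.55 in CON (SD, n = 3) and 16.4% ± 7.71 with ferric citrate (SD, n = 9), which is 13.2 percentage points higher (p = 0.00909 in a two-sided exact permutation test, the smallest value that 9 against 3 libraries can give). With each library left out in turn the difference stayed between 11.4 and 14.5 points. Library totals were alike, from 22631206 to 24845945 reads, and the miRNA counts ranged from 452021 to 7565362. The widest 95% Wilson interval of a share was 0.0362 percentage points, which covers counting error only. More miRNA and less of whatever else the total holds cannot be told apart on this measure.

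More entries were detected with ferric citrate before the miRNA counts of the libraries were made equal. At least 1 count was found for 272.3 ± 10.1 entries in CON (SD, n = 3) and for 280 to 475 in the ferric citrate libraries, a difference of 63.9 entries (exact permutation test, two-sided, p = 0.0182, above 0.05 without CON replicate 1 or 2). After each library had been thinned to 452021 counts, the difference was 24.3 entries and the groups overlapped (236 to 267 and 238 to 404, exact permutation test, two-sided, p = 0.7). The 10 most counted entries took 81.7% ± 0.502 of the miRNA counts in CON (SD, n = 3) and 81.3% ± 1.93 with ferric citrate (SD, n = 9) (exact permutation test, two-sided, p = 0.918).

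**Figure D1:**
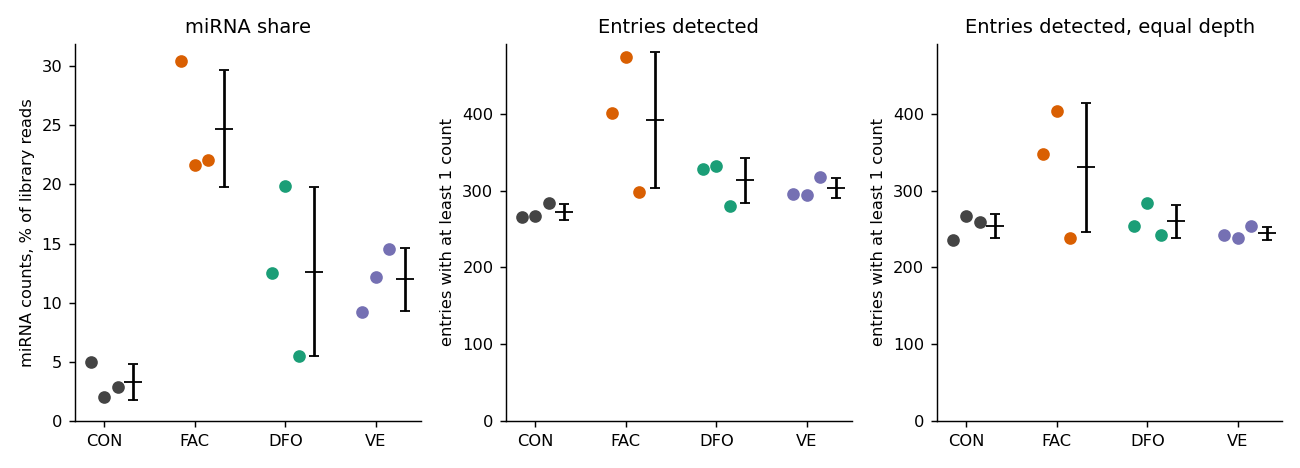
Share of miRNA counts in the library reads (left, percent), entries with at least 1 count (middle) and the same after thinning to 452021 counts (right), by group. Points are libraries and bars are the mean and SD of 3 libraries. All 9 ferric citrate libraries lie above the 3 CON libraries on the left (5.53% to 30.4% against 1.997% to 4.998%) and overlap them on the right.

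In RPM, 32 of the 547 tested entries (5.85%) lay higher in all 9 ferric citrate libraries than in all 3 CON libraries, and 0 lay lower. They include miR-122-5p, members of the let-7, miR-99 and miR-125 families, miR-182-5p, miR-298-5p and miR-146a-5p. The count depends on 1 CON library in particular: without CON replicate 1 it was 96, and without DFO replicate 3 it was 50. In edgeR's quasi-likelihood test with counts scaled to the library totals, 49 entries were higher with ferric citrate at an adjusted p under 0.05 (8.96%) and 3 were lower (0.548%). Of the 32 entries without overlap, 23 were among these 49. With CON replicate 2 left out, the edgeR test called 0 entries, with 93 at an unadjusted p under 0.05, so every edgeR call relative to library reads given below was lost without that library. With CON replicate 3 left out it called 11 entries, with CON replicate 1 left out 87, with VE replicate 2 or 3 left out 32 or 31, and with FAC replicate 1 left out 34. limma on log2(RPM + 1) called 88 entries, all higher, and 29 without CON replicate 2, 38 without CON replicate 3, and 56, 52, 57 and 58 without FAC replicate 1 or 2 or VE replicate 2 or 3. Since the miRNA share itself was higher, a positive value is the common case on this scale: the median log2 difference of all 547 entries was 0.55 on the log2(RPM + 1) scale and 0.43 on the log2 CPM scale with a prior count of 2. Among the 102 entries with at least 10 counts in every library, the median fitted log2 fold change was 2.13 relative to library reads and -0.23 relative to miRNA counts. Of these 102, 26 did not overlap in RPM. At least 10 counts in all 3 CON libraries were found for 41 of the 49 called entries and for 106 of the 547 tested. The shares of all tested entries given below are thus lower than those of well-counted entries.

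miR-122-5p, the main miRNA of hepatocytes, was the most abundant of the 32. Its RPM was 5509, 2219 and 3029 in CON replicates 1 to 3 and between 6161 and 27404 in the ferric citrate libraries, with a median of 18538. All 9 libraries lay above CON, with DFO replicate 3 the lowest. The mean was 4.73 times as high, with a log2 fold change of 2.20 (standard error 0.56, edgeR adjusted p = 0.00424). In CPM the same miRNA did not pass the test (119758 ± 11565, SD, n = 3, and 116058 ± 56680, SD, n = 9, log2 fold change -0.10, edgeR adjusted p = 1.00).

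The joined entry of miR-486a-5p and miR-486b-5p, miRNAs of red blood cells and muscle whose mature forms cannot be told apart, had an RPM of 2022, 1091 and 761 in CON. It lay between 2372 and 21370 with ferric citrate, with a median of 4571. No library overlapped, and the highest values were in the VE group and in FAC replicate 3. The log2 fold change relative to library reads was 2.68 (standard error 0.60, edgeR adjusted p = 0.00128). miR-151-3p lay between 4773 and 14568 RPM against 3391, 1528 and 2263 RPM (log2 fold change 1.80, edgeR adjusted p = 0.0257).

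The let-7 family, which restrains growth and pluripotency genes such as Lin28a, had 19 tested entries, of which 5 were called higher relative to library reads and 4 did not overlap in RPM, beside 8.96% and 5.85% of all tested entries. Both shares take in many entries with few counts, and 26 of the 102 entries with at least 10 counts in every library did not overlap. let-7c-5p, the most counted entry of all, had 7491, 3679 and 5902 RPM in CON and between 6284 and 64490 RPM with ferric citrate, with a median of 24382. VE replicate 1 lay below CON replicate 1, so the groups overlapped (log2 fold change 1.91, standard error 0.53, edgeR adjusted p = 0.00925). let-7f-5p did not overlap, with 126, 72.5 and 144 RPM in CON and 202 to 2540 RPM with ferric citrate (log2 fold change 2.84, edgeR adjusted p = 0.00602). let-7d-5p rose from 3.47, 0.884 and 0.769 RPM to between 7.44 and 93.0 RPM (edgeR adjusted p = 0.00908), and let-7a-5p and let-7d-3p were called higher as well. Members differ by few bases outside the seed, as the sequences show, and reads can be counted on the wrong member.

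let-7b-5p changed direction with the scale. In RPM it had 2344, 1122 and 2145 in CON and between 2573 and 14955 with ferric citrate, with a median of 3549, so that all 9 libraries lay above CON (log2 fold change 1.502, standard error 0.57, edgeR adjusted p = 0.0756). In CPM it had 46520, 66864 and 83379 in CON and between 9890 and 100598 with ferric citrate, with a median of 28137. There the groups overlapped, with the DFO libraries the highest of the 9 on average, and the log2 fold change was -0.95 (standard error 0.31, edgeR adjusted p = 0.0464). The CPM call was kept only without CON replicate 1, FAC replicate 3 or DFO replicate 1, and lost with any of the other 9 libraries left out.

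The miR-10, miR-99, miR-100 and miR-125 families, part of which lies in the Hox clusters or in clusters with let-7, had 13 tested entries, of which 8 were called higher relative to library reads and 4 did not overlap in RPM, again beside 8.96% and 5.85% of all. Of the 102 entries with at least 10 counts in every library, 26 did not overlap. The median log2 difference of the 13 was 2.503 on the log2(RPM + 1) scale. miR-125b-5p, a homolog of the worm timing gene lin-4, had 254, 131 and 199 RPM in CON and between 322 and 4110 RPM with ferric citrate, with a median of 1673. The groups did not overlap, and the log2 fold change was 3.16 (standard error 0.71, edgeR adjusted p = 0.00128). miR-99b-5p lay at 1403, 612 and 743 RPM in CON and between 2339 and 11198 RPM with ferric citrate (log2 fold change 2.67, edgeR adjusted p = 0.00214). Its hairpin lies within 10 kb of those of let-7e and miR-125a in RefSeq (GRCm38.p6). From that cluster miR-99b-3p, miR-125a-5p and miR-125a-3p were also called higher. miR-99a-5p had the smallest adjusted p of the series on this scale (0.000173 in edgeR, log2 fold change 2.95), with 3524, 1494 and 1601 RPM in CON and 3427 to 59504 RPM with ferric citrate. DFO replicate 3 lay below CON replicate 1 and the FAC libraries reached the top of the range. In CPM, 0 entries of these families were called by edgeR and 2 were past the paper's threshold, both lower.

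miR-182-5p and miR-183-5p, transcribed from 1 cluster known from sensory organs, were both called higher relative to library reads. miR-182-5p had 29.9, 29.6 and 47.2 RPM in CON and between 76.0 and 2251 RPM with ferric citrate, with a median of 369.8. The groups did not overlap, and the FAC and DFO groups each spread widely (log2 fold change 3.65, standard error 0.82, edgeR adjusted p = 0.00128). miR-298-5p had 21.8, 3.18 and 28.7 RPM in CON and between 37.5 and 720 RPM with ferric citrate (log2 fold change 3.56, edgeR adjusted p = 0.00396). miR-34b-3p, of a family induced by p53, lay between 15.7 and 204 RPM and its neighbour miR-34c-3p between 6.40 and 92.7 RPM, both without overlap, and edgeR called the first (adjusted p = 0.0357) but not the second (adjusted p = 0.079). miR-182-5p, miR-183-5p and miR-298-5p, which no list holds, were chosen after their values had been seen.

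**Figure D2:**
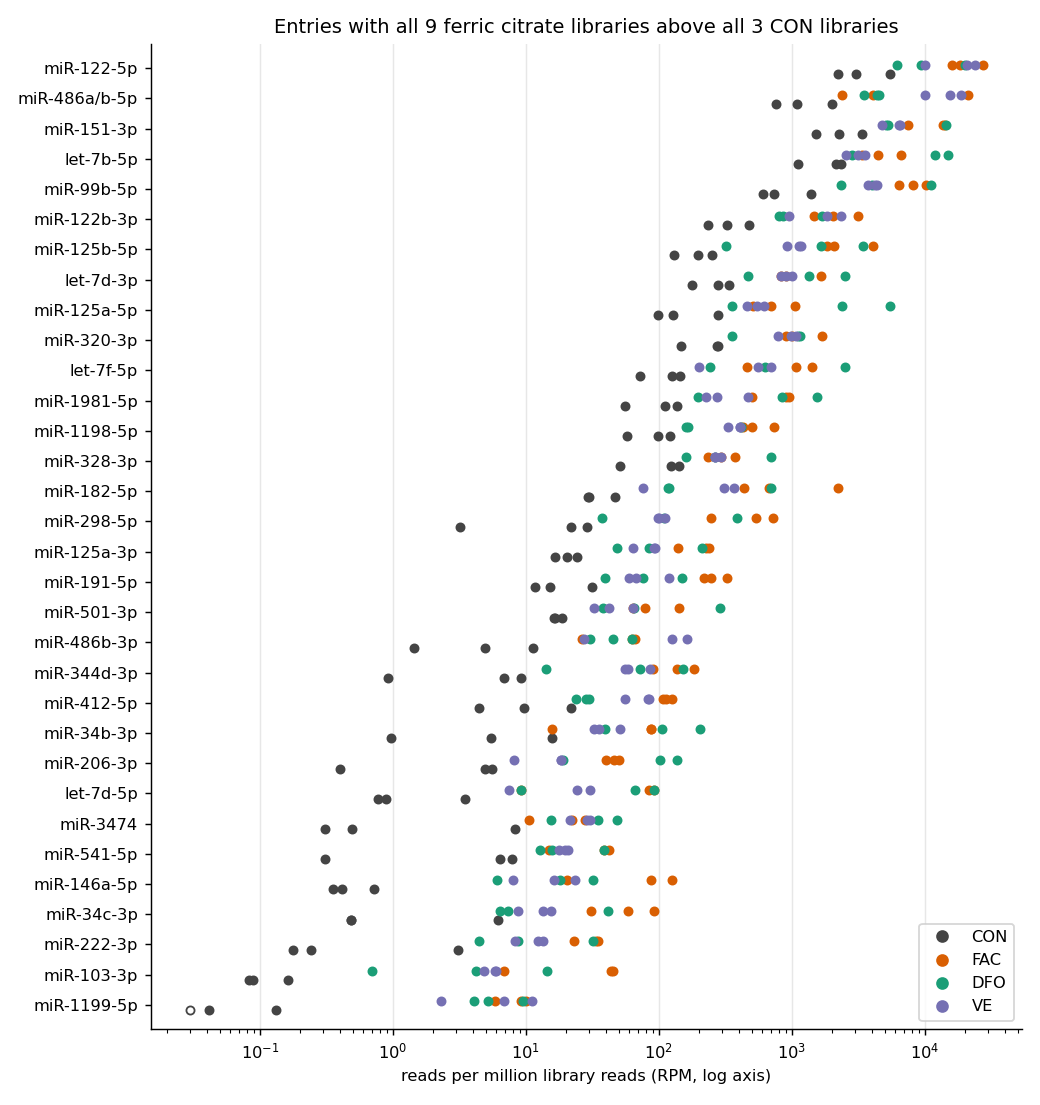
RPM of the 32 entries whose 9 ferric citrate libraries all lay above the 3 CON libraries, on a log axis, ordered by mean CPM. Each point is 1 library, with CON drawn slightly under the others in each row, and the open point is a value of 0 placed at the left edge. For miR-122-5p at the top, CON ends at 5509 and the other libraries start at 6161 RPM.

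Each of the FAC, DFO and VE groups was also set against CON on its own, with the fold change of at least 1.5 and unadjusted p under 0.05 that the study used for miRNAs. These comparisons share the CON libraries. Relative to library reads, 48 entries (8.78%) were past this threshold and higher in each of the 3, and 0 were lower in each. Leaving out CON replicate 1, 2 or 3 gave 79, 24 or 28 such entries, and leaving out VE replicate 3 gave 31. The 48 entries hold 35 of the 49 called entries and 24 of the 32 without overlap. For miR-125b-5p the log2 fold changes against CON were 3.79 in FAC, 3.23 in DFO and 2.469 in VE. For miR-122-5p they were 2.53, 1.73 and 2.35, and for miR-146a-5p 7.28, 5.22 and 4.99.

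Relative to the other miRNAs, few entries had values common to all 3 treated groups. In CPM, 8 entries were past the study's threshold in each group against CON, 1 higher (0.183%) and 7 lower (1.28%). Without FAC replicate 1, DFO replicate 1 or VE replicate 2 the number was 5, with 0 higher. Without CON replicate 2 it was 5 higher and 7 lower, without CON replicate 3 it was 4 higher and 2 lower, and without CON replicate 1, FAC replicate 3 or VE replicate 1 or 3 it was 2 higher and 5 to 7 lower. Without the TMM factors it was 3 higher and 6 lower, and with RLE factors 0 higher and 9 lower. The 1 higher entry was miR-146a-5p, a miRNA induced by NF-κB that dampens innate immune signalling. It had 8.19, 21.1 and 28.3 CPM in CON, from 10, 8 and 18 counts. It had between 88.5 and 407 CPM with ferric citrate, with a median of 141, from 151 to 3047 counts. All 9 libraries lay above CON. The mean was 19.2 ± 10.2 CPM in CON (SD, n = 3), 255 ± 152.2 in FAC, 136 ± 20.5 in DFO and 141 ± 61.4 in VE (SD, n = 3 each). The log2 fold change over the 3 groups was 3.15 (standard error 1.24) and did not pass the adjustment over 547 entries in edgeR (adjusted p = 0.16, unadjusted p = 0.0114). It stayed between 2.78 and 3.65 with each library left out in turn, and its adjusted p over the settings tried lay between 0.000321 and 0.571. Relative to library reads it was called (edgeR adjusted p = 0.00358).

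In CPM, 3 entries (0.548%) lay higher in all 9 ferric citrate libraries than in all 3 CON libraries, and 1 (0.183%) lay lower. Beside miR-146a-5p, the higher ones were miR-222-3p and miR-1199-5p, and the second was chosen after its values had been seen. miR-222-3p, a regulator of cell cycle inhibitors, had 61.4, 10.5 and 9.43 CPM in CON and between 63.8 and 147 CPM with ferric citrate (log2 fold change 1.93, standard error 1.30, edgeR adjusted p = 0.64). CON replicate 1 lay just under VE replicate 3. miR-1199-5p had 1, 3 and 0 counts in CON and between 56 and 268 counts with ferric citrate. The 1 lower entry was miR-149-5p, with 355, 492 and 337 CPM in CON and between 30.1 and 248 CPM with ferric citrate, with a median of 94.6. Its log2 fold change was -1.76 (standard error 0.84, edgeR adjusted p = 0.323). In RPM the order turned, with 11.6 ± 5.46 in CON (SD, n = 3) and 20.01 ± 12.2 with ferric citrate (SD, n = 9), and the libraries overlapped. Without the TMM factors miR-222-3p left this set and miR-344d-3p entered it, with 183, 55.3 and 267 CPM in CON and 263 to 681 CPM with ferric citrate after TMM scaling (log2 fold change 1.67, edgeR adjusted p = 0.324). The number of entries without overlap was 23, 12 or 14 without CON replicate 1, 2 or 3, was 8 without DFO replicate 3, and was 4 or 5 without any of the others.

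**Figure D3:**
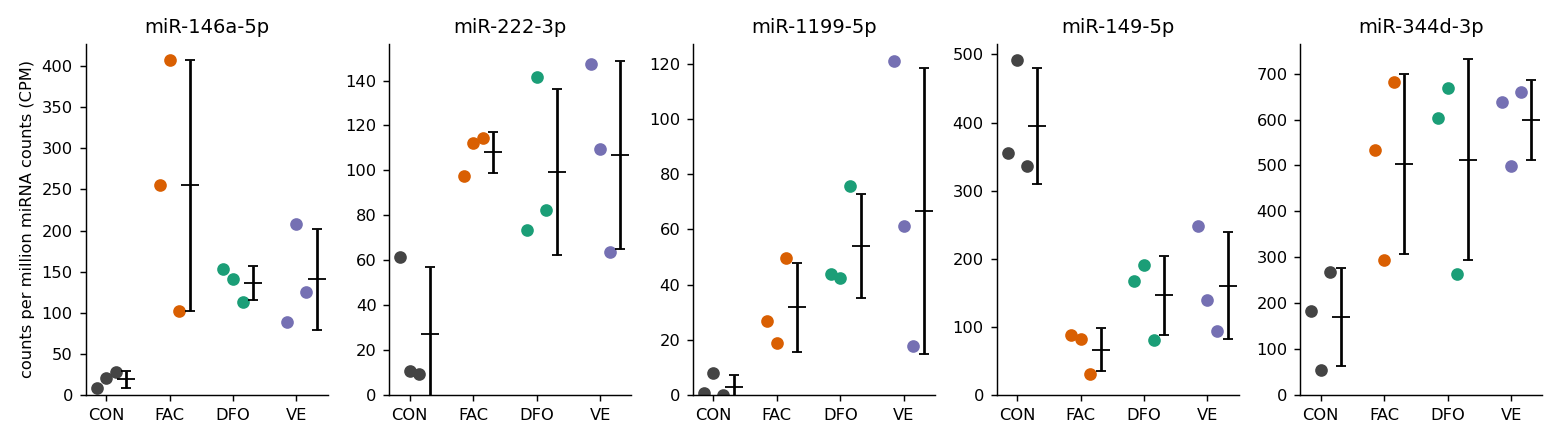
CPM (TMM scaled) by group for the 4 entries whose 9 ferric citrate libraries do not overlap CON, and for miR-344d-3p. Points are libraries, bars are the mean and SD of 3 libraries, and axes start at 0. miR-146a-5p lies at 8.19 to 28.3 CPM in CON and from 88.5 CPM upward elsewhere, and miR-149-5p lies lower in the treated libraries.

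In the test of all 9 libraries against CON in CPM, 24 entries were lower at an adjusted p under 0.05 (4.39%) and 0 were higher, in edgeR's quasi-likelihood test. At an unadjusted p under 0.05 the numbers were 63 lower (11.5%) and 9 higher (1.65%), all with a fold change of at least 1.5. limma on log2 CPM called 0 entries (41 at an unadjusted p under 0.05), and DESeq2 called 18, of which 9 were higher. Of the 24, 22 had a negative and 2 a positive fold change when the counts were scaled to library totals. The number was 6 without CON replicate 3, 32 without FAC replicate 3 and between 11 and 16 with any of the other 10 libraries left out.

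The 24 lower entries were mostly counted in 1 CON library. In 18 of them more than 90% of the CON CPM came from 1 library, CON replicate 1 for 8, CON replicate 2 for 3 and CON replicate 3 for 7. Over the 361 tested entries with any count in CON this held for 41.3%. The count in that library was between 52 and 371 with a median of 113. The distribution of log2 counts between 10 and 500 had its highest peak at 68.6, 117 and 198 counts in CON replicates 1 to 3 and between 20.2 and 197 in the others. The 18 counts were 0.47 to 1.88 times the peak of their library, with a median of 0.936. A peak so far above 1 count is unusual for read counts and its origin was not established. Folds against libraries at 0 are given on a floor of 3 counts, which takes a count as 1 read. With the counts of each library divided by its peak, edgeR called 1 entry, and 16 of the 24 fell below the filter and were not tested. In no entry of the 24 did all 3 CON libraries lie above all 9 others. In 6 entries 2 CON libraries did, and in 17 entries 1 did.

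miR-5110 had 0, 121 and 0 counts in CON and 0 or 1 with ferric citrate. miR-6929-3p had 0, 2 and 206 counts in CON and also 0 or 1 with ferric citrate. miR-1966-5p had 0, 0 and 251 counts in CON, between 26 and 55 in the FAC libraries and 0 in the DFO and VE libraries. Each was thus high in a single CON library. miR-1188-5p, from the imprinted miRNA clusters near Rian, had 120 counts in CON replicate 3 and 0 in the other 11 libraries. Its mean CPM was at least 66.0-fold lower with ferric citrate, taking 3 counts per library as the floor. miR-7070-5p had 72 counts in CON replicate 1 and 0 elsewhere (at least 20.6-fold lower on the same floor). miR-881-3p and miR-547-3p, both of X-linked clusters, had 55 counts each in CON replicate 1 and 0 elsewhere.

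miR-25-5p had 1, 115 and 343 counts in CON. It had 0 counts in all VE libraries and between 2 and 418 in the others. The groups overlapped in counts and CPM, and the log2 fold change of -6.08 (standard error 1.11, edgeR adjusted p = 7.08e-06) rested in part on the VE libraries at 0. The opposite arm of its hairpin, miR-25-3p, had 516, 142 and 92.9 RPM in CON and between 424 and 5940 RPM with ferric citrate, and was called higher relative to library reads (log2 fold change 2.76, edgeR adjusted p = 0.00358). miR-363-3p, which has the seed of miR-25-3p, had 371 counts in CON replicate 3, 0 in the other CON libraries and at most 24 with ferric citrate. miR-187-5p had 1, 0 and 186 counts in CON and 86 in DFO replicate 2, with at most 2 in the other 8.

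miR-1a-3p, a miRNA of striated muscle, was the 1 entry of the 7 lower in each group that was counted well in more than 1 CON library. It had 587, 0 and 185 counts in CON (481, 0 and 291 CPM) and between 0.267 and 52.0 CPM with ferric citrate, with a median of 3.10. CON replicate 2 lay below all the others and the remaining CON libraries above them. The log2 fold change was -4.42 (standard error 1.09, edgeR adjusted p = 0.00335). The call was lost without CON replicate 1 (edgeR adjusted p = 0.216) or CON replicate 3 (edgeR adjusted p = 0.0554). miR-206-3p, another muscle miRNA, did not overlap in RPM (5.61, 4.90 and 0.405 in CON, 8.14 to 136 with ferric citrate), with a log2 fold change of 3.42 relative to library reads (edgeR adjusted p = 0.0394). That call was kept in only 4 of the 12 fits with 1 library left out (edgeR adjusted p up to 0.171).

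miR-143-3p, abundant in smooth muscle and fibroblasts, and let-7b-5p were the only 2 of the 24 with at least 10 counts in all 3 CON libraries. miR-143-3p had 108430, 54714 and 30994 CPM in CON and between 13784 and 66233 CPM with ferric citrate, with a median of 24384. The groups overlapped, with the FAC group (47384 ± 16373, SD, n = 3) above the VE group (16804 ± 3456, SD, n = 3). The log2 fold change was -1.16 (standard error 0.31, edgeR adjusted p = 0.0113). The call was lost without CON replicate 1 (log2 fold change -0.57, edgeR adjusted p = 0.706), the highest of the 12, and without CON replicate 2 (edgeR adjusted p = 0.0536). Relative to library reads the log2 fold change was 0.93 and did not pass (edgeR adjusted p = 0.269). Of the other entries, miR-3077-3p, miR-425-3p and miR-6970-5p had at most 1 CON library with more than 1 count (182, 55 and 109), and reached 407, 26 and 322 counts in a ferric citrate library.

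**Figure D4:**
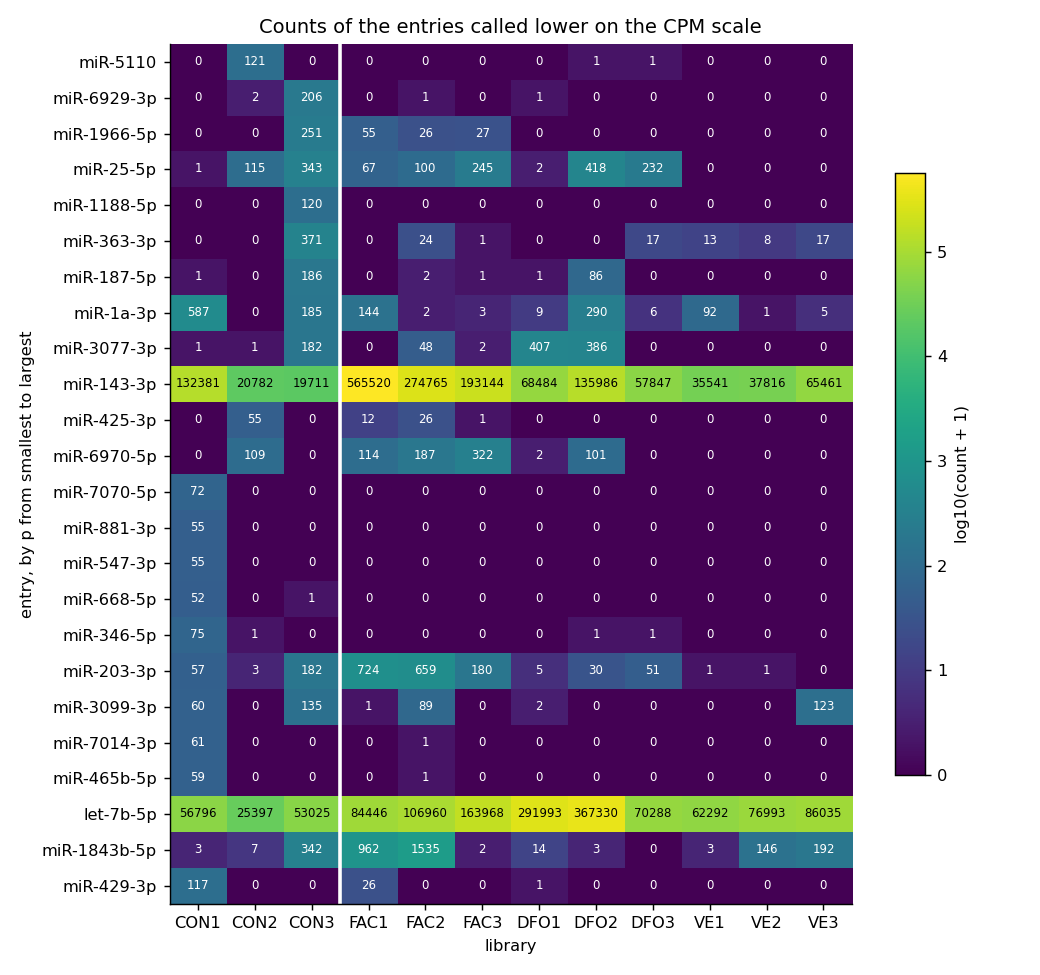
Counts of the 24 entries called lower in CPM, by library, coloured by log10(count + 1) and ordered by p. The white line separates CON from the 9 ferric citrate libraries. Most rows have 1 CON library with 52 to 371 counts, and miR-143-3p and let-7b-5p alone are high in all 12 libraries.

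Among all tested entries 8.96% were called higher relative to library reads and 4.39% lower in CPM, against which the other lists are counted. These shares take in many entries with few counts, and no list was set against entries of like abundance. Of 10 tested entries of the miR-30 family, 3 were called higher relative to library reads and 0 lower or higher in CPM by edgeR, with 1 entry past the study's threshold. That entry, miR-30a-5p, had 34.5, 4.37 and 19.5 RPM in CON and between 25.7 and 962 RPM with ferric citrate (log2 fold change 3.64, edgeR adjusted p = 0.00281). Of 11 entries of the miR-23, miR-27 and miR-24 clusters, 3 were called higher relative to library reads, namely miR-23a-3p, miR-23b-3p and miR-24-3p. In the FAC group they reached 564, 155 and 1493 RPM. The number of these 11 entries without overlap was 0 in RPM and 0 in CPM. Their summed RPM was 53.9 to 231 in CON and 151 to 4046 with ferric citrate. Of the miR-17 to miR-92a clusters, 15 entries were tested, 1 was called higher relative to library reads (miR-25-3p) and 2 lower in CPM (miR-25-5p and miR-363-3p). miR-148a-3p was the 1 called entry of 5 in the miR-148 and miR-152 family (log2 fold change 2.03 relative to library reads, edgeR adjusted p = 0.00766), and its RPM ran from 2464 to 75242 with ferric citrate and overlapped the 4871, 1554 and 1945 RPM of CON. miR-221-3p was the 1 entry of 4 in the miR-221 and miR-222 cluster called higher relative to library reads. The 1 entry of that cluster without overlap in CPM was miR-222-3p, so for miR-221-3p the libraries overlapped in CPM. No entry was called on either scale among the 11 of miR-15 and miR-16, the 8 of miR-26 and miR-29, the 7 of miR-181, the 9 of the rodent miR-297, miR-466, miR-467 and miR-669 clusters and the 5 linked to ferroptosis. For these 5, miR-214-3p and miR-9-5p being the most counted, the median log2 difference was 1.25 on the log2 CPM scale and 0.80 on the log2(RPM + 1) scale, beside 0.43 and 0.55 over all tested entries. The ferroptosis list summed to 0.221 to 6.93 RPM in CON, with a median of 0.324 RPM, where 3 counts were 0.121 to 0.133 RPM. In CPM without TMM factors the sums overlapped (11.1 to 139 in CON, 47.7 to 255 with ferric citrate). These medians thus rest on few counts in most CON libraries.

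Among 17 tested entries linked to iron or hypoxia, 5 were called higher relative to library reads, beside 8.96% of all (miR-122-5p, which acts on regulators of systemic iron, miR-148a-3p, let-7d-3p, let-7d-5p and miR-320-3p) and 0 in CPM. miR-320-3p lay at 280, 146.1 and 275 RPM in CON and between 355 and 1691 RPM with ferric citrate, without overlap (log2 fold change 2.10, edgeR adjusted p = 0.0349). Of 14 entries used elsewhere as references in vesicles, 5 were called higher relative to library reads, among them miR-423-5p (log2 fold change 1.95, edgeR adjusted p = 0.012), miR-191-5p and miR-103-3p, and 1 was lower in CPM (miR-25-5p). Of 39 listed entries of the imprinted Dlk1-Dio3 cluster, 1 was called higher relative to library reads (miR-495-3p) and 1 lower in CPM (miR-668-5p). The list lacks miR-1188-5p, which lies within Rian beside miR-370 in RefSeq (GRCm38.p6) and was also called lower. Entries with a number above 1000 made up 32.9% of the tested entries (180) and 41.7% of those called lower in CPM (10 of 24). They gave 4 of the 49 entries called higher relative to library reads and all 3 called lower there. Of 22 entries linked to granulosa cell function, 2 were called higher relative to library reads (miR-125b-5p and miR-34b-3p), a share near the 8.96% of all tested entries, and 0 in CPM.

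Markers of the labelled cell type were present in part. The summed CPM, without TMM factors, of 9 measured granulosa cell markers was 1907 to 2383 in CON and 996 to 3905 with ferric citrate, and 0 of the 9 were called on either scale. Most of it was miR-21a-5p, with 2060 ± 613 CPM in CON (SD, n = 3) and 1436 ± 660 with ferric citrate (SD, n = 9). Over the 12 libraries miR-21a-5p had 70237 counts, against 12349 for miR-224-5p and 292 for miR-202-3p. The listed marker miR-383 had no entry. Whether miR-21a-5p marks granulosa cells in particular was not tested. miR-202-5p, a miRNA typical of gonads, was at 0 counts in all CON libraries and reached 18.7 CPM in 1 ferric citrate library. Red blood cell markers summed to 27535 to 56050 CPM in CON and 8378 to 170716 with ferric citrate. Of 4 tested entries, 2 were called higher relative to library reads, beside 8.96% of all tested entries. The joined miR-486a-5p and miR-486b-5p entry was 1 of them. The other tested entries were miR-451a, miR-486a-3p and miR-486b-3p. Almost all of the sum was the joined miR-486a-5p and miR-486b-5p entry, which is also found in muscle. It had 2153154 counts over the 12 libraries, against 27198 for miR-451a. The listed marker miR-144-3p had 1 count and was not tested. miR-451a, a defining marker of red blood cells, had 804, 653 and 50.3 CPM in CON and 8.61 to 3798 CPM with ferric citrate. The liver marker miR-122-5p was among the 10 most counted entries in both groups. The stromal markers summed to 28191 to 110383 CPM in CON and 13093 to 75474 with ferric citrate, almost all miR-143-3p, and 1 of 9 was called lower in CPM. For epithelial cells the sum was 2.21 to 228 CPM in CON and 0 to 36.0 with ferric citrate, and 1 of 6 was called lower (miR-429-3p, with 117, 0 and 0 counts in CON). For muscle the sum was 246 to 597 CPM in CON and 129 to 830 with ferric citrate. Leukocyte markers (22.1 to 320 CPM in CON, 1.80 to 358 with ferric citrate), neuronal markers (985 to 1171 and 769 to 2131) and markers of oocytes and early embryos (173 to 518 and 63.3 to 472) had 0 calls in CPM, and 1 neuronal entry, miR-128-3p, was called higher relative to library reads. The part of these cells in the results was not tested.

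A RefSeq sequence was matched for 473 of the 547 tested entries. The median GC content was 52.2% over these 473, 52.2% for the entries called lower in CPM (19 with a sequence) and 50.0% for the 32 entries that did not overlap in RPM (25 with a sequence). Across entries the log2 CPM difference and the GC content had a Pearson r of -0.0689, and entries are not independent replicates.

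The 9 ferric citrate libraries were not alike. In a test of FAC, DFO and VE against each other within the same edgeR fit, 9 entries differed at an adjusted p under 0.05 in CPM (1.65%) and 23 relative to library reads (4.2%). The CPM number was 18, 17 or 21 without CON replicate 1, 2 or 3, 28 without FAC replicate 3, 14 without DFO replicate 3, and 4, 5 or 6 without DFO replicate 1, DFO replicate 2 or VE replicate 2. The number relative to library reads was 0 without FAC replicate 1 (57 at an unadjusted p under 0.05 in edgeR), 2 without FAC replicate 2 or DFO replicate 1, and 6, 1 or 10 without VE replicate 1, 2 or 3. It was 35 or 36 without CON replicate 1 or DFO replicate 2, and 1 with the replicate number as a block. miR-148a-3p was highest in FAC, with 41116 ± 30176 RPM, against 3877 ± 2123 in DFO and 9191 ± 2936 in VE (SD, n = 3 each). let-7b-5p and miR-125a-5p were highest in DFO. miR-125a-5p had 2409, 5509 and 358 RPM in the DFO replicates, 514, 696 and 1057 in FAC and 461, 549 and 619 in VE, so DFO replicate 3 lay below the other treated libraries while all 9 lay above CON (281, 98.1 and 128 RPM). The joined miR-486a and miR-486b entry was highest in VE, with 14776 ± 4464 RPM against 4142 ± 578 in DFO (SD, n = 3 each), and FAC replicate 3 was its highest library. Relative to library reads, edgeR called 89 entries higher in FAC against CON (16.3%), 17 in DFO (3.11%) and 15 in VE (2.74%), and 0, 0 and 1 lower. In CPM it called 1 lower in FAC, 3 lower in DFO, and 10 lower (1.83%) and 1 higher in VE.

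**Figure D5:**
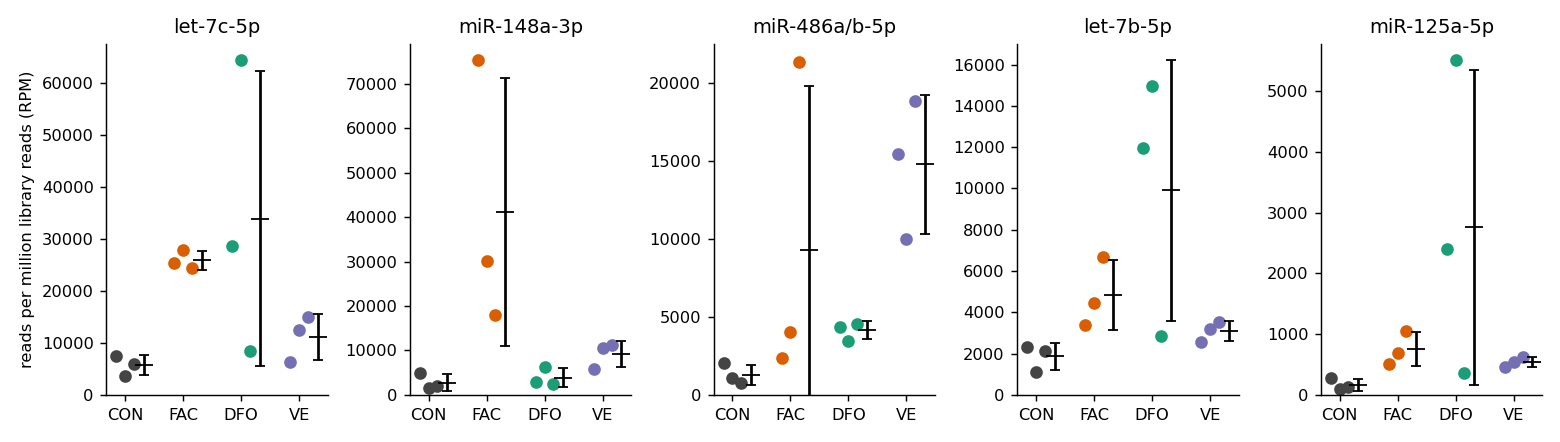
RPM by group of the 5 most counted entries that differed among FAC, DFO and VE. Points are libraries and bars are the mean and SD of 3 libraries. let-7b-5p, miR-125a-5p and the joined miR-486a and miR-486b entry lie above CON in all 9 libraries but at unlike levels, and miR-148a-3p is highest in FAC.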

How the data were processed

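Small RNA of exosomes was sequenced on an Illumina instrument with reads of 15 to 41 bp. The authors deposited, for each of the 12 libraries, the read counts of 637 miRNA entries, 5 of which join miRNAs that reads cannot tell apart. The authors also deposited the same values as RPM. Dividing each count by its RPM gave 1 total for a library, and which reads make it up is not stated. The submitters' processing notes name the build mm9, while the aligner and miRNA database are not given in the sources used here. Reads can fall on the wrong member of a family, and TMM-scaled CPM carries no difference in the miRNA share itself.

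Groups came from the treatment labels. Counts were fitted in edgeR 4.0.16 (R 4.3.3) by quasi-likelihood with TMM factors and 1 coefficient per group, using the 12 libraries and the 547 entries with at least 10 counts in total. The contrast was the mean of FAC, DFO and VE minus CON, called at a Benjamini-Hochberg adjusted p under 0.05. The study names no test for miRNAs, and its threshold (1.5-fold, unadjusted p under 0.05) was counted beside it. Entries varied strongly (edgeR's common coefficient of biological variation, 1.57). Log2 CPM used a prior count of 2. Library measures were tested by two-sided exact permutation over 220 splits in SciPy 1.17.1. Replicates were compared before averaging, and no 2 libraries agreed within sampling noise (smallest chi-square per degree of freedom 155.7 over 66 pairs). The fits were tested on simulated data.

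The alternatives were RLE factors, no composition factor, library totals, DESeq2 1.42.0, limma 3.58.1 on log2 CPM, log2(RPM + 1) and log2(RPM + 0.1), other filters, 1 group of 9, a replicate block, thinned counts, counts divided by the peak, and fits without a group or library. Leave-one-out fits relative to library reads were added after seeing the data. Entries were named when they were among the 15 with the smallest p called in each direction, among the 10 common to the 3 groups, without overlap in CPM with a mean of at least 100 CPM (5 in each direction), among the 10 most counted, or among the 3 most counted of a list. Further entries were named outside this rule, after their values had been seen. Among them were let-7d-5p, miR-34b-3p, miR-34c-3p, miR-495-3p, miR-191-5p and miR-103-3p. The comparison, the members and the lists were chosen with earlier results of these data known. Sequences came from RefSeq (GRCm38.p6), which is not the files' build, and were used for names, seeds and neighbours only, matched for 549 of the 637 entries. Depth sets the precision, and 3 counts, taken as the floor, were 0.397 CPM in the deepest library and 6.64 CPM in the shallowest before TMM scaling.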

Additional observations from a re-analysis of the deposited data

Results flagged for a closer look

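The miRNA counts divided by the highest peak of the distribution of log2 counts between 10 and 500 gave 1 library that stood apart from the other 8 with ferric citrate, FAC replicate 2, with a value of 258021 where the median of the 9 was 31744. The gap to its nearest neighbour exceeded Dixon's 95% critical value of 0.493 for 9 samples. Of 14 such sets tested, 1 was singled out, and chance singles out about 1 set in 20. In the same library this peak lay at the smallest count of the 12, 20.2, and the most entries detected, 475.

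For 9 entries the change against CON differed among the FAC, DFO and VE groups in CPM, by the test of that difference in edgeR. The adjusted p was 0.000225 for miR-148a-3p and 0.000281 for each of let-7b-5p, miR-125a-5p and the joined miR-486a-5p and miR-486b-5p entry. It was 0.000332 for miR-25-5p, 0.00456 for let-7c-5p, 0.0058 for miR-3077-3p, 0.0139 for miR-1934-3p and 0.0337 for miR-669c-5p. let-7b-5p, let-7c-5p, miR-125a-5p, miR-1934-3p and miR-669c-5p had their highest mean RPM in DFO, miR-148a-3p in FAC and the miR-486 entry in VE. miR-25-5p and miR-3077-3p were at 0 counts in the 3 VE libraries. Relative to library reads, the difference among the groups did not pass for let-7b-5p (edgeR adjusted p = 0.227), let-7c-5p (0.211), the miR-486 entry (0.176) and miR-669c-5p (0.143).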

How the results depend on the processing

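The 24 entries differing in CPM (edgeR adjusted p under 0.05) became 52 with library totals, 0 with limma on log2 CPM (41 at an unadjusted p under 0.05), 88 and 94 with limma on log2(RPM + 1) and log2(RPM + 0.1), 13 with no filter, 2 with filterByExpr (312 tested), 0 with at least 10 counts in every library (102 tested, 16 at an unadjusted p under 0.05), 11 with 1 group of 9, 41 with thinned counts, 1 with counts over the peak, 10 without the FAC group and 7 without the VE group. Leaving out 1 library gave 6 to 32. RLE factors gave 34 entries, with all 24 among them, and no composition factor gave 17, all of them among the 24. DESeq2 gave 18 (253 adjusted p not given), 9 higher and 9 lower, with 4 of the 24 among them, and the fit with no DFO group gave 24, of which 16 were the same. The 72 entries past the study's threshold became 142, 40, 140 and 141 with library totals and the 3 limma fits, 45 with filterByExpr, 16 with at least 10 counts in every library, 45 with 1 group of 9, 24 with counts over the peak and 57 to 80 without 1 library. The 8 common to FAC, DFO and VE became 48 with library totals, 15 with DESeq2, 47 and 51 with limma on RPM, 1 with filterByExpr, 2 with at least 10 counts in every library and 5 to 12 without 1 library (12 without CON replicate 2). The 9 entries differing among FAC, DFO and VE became 18 with RLE factors, 23 with library totals, 37 with DESeq2, 5 with limma on log2(RPM + 1), 17 with no filter, 3 with filterByExpr, 5 with at least 10 counts in every library, 16 with thinned counts, 70 with counts over the peak and 4 to 28 without 1 library. The 49 higher relative to library reads became 88 and 94 with limma, 22 without the FAC group, 81 without the DFO group and 0 to 87 without 1 library, and the 88 of limma became 29 to 96. The 4 entries without overlap in CPM became 32 in RPM and 4 to 23 without 1 library. The difference of 63.9 entries detected was 24.3 after thinning and 46.5 to 70.9 without 1 library, where p reached 0.0727. The difference of -0.40 points in the share of the 10 most counted entries was 0.175 for the 20 most counted, and -0.649 to 0.0797 without 1 library (0.0797 without DFO replicate 2). The sign turned with library totals, limma on log2(RPM + 1) and limma on log2(RPM + 0.1) for miR-143-3p (0.93, 1.42 and 1.42), let-7b-5p (1.502, 1.45 and 1.45) and miR-149-5p (0.78, 0.55 and 0.58). Dropping libraries or raising the filter leaves fewer samples or entries, and the other causes were not tested.

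With the replicate number as a block, the 24 entries became 1, the 72 became 33, the 8 became 1, the 9 became 14 and the 49 became 35. Libraries with the same number did not deviate together (mean correlation 0.00421 over 18 pairs, 0 over 0.1, and -0.00202 over 36 pairs with different numbers). No pairing by replicate number was thus seen. The correlation was taken over all 547 entries, whose median level was 7.68 CPM, so noise in low counts can hide a pairing.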
